A study of Mus musculus with 12 samples.

Results

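CD8 T cells were examined in the stromal vascular fraction (SVF) of mouse white adipose tissue, which is the mixture of immune, stromal and vascular cells left after mature adipocytes are floated off a collagenase digest. They were chosen cell by cell from raw unique molecular identifier (UMI) counts, where 1 UMI stands for 1 captured RNA molecule. A cell was taken if it had at least 1 UMI of Cd3d, Cd3e or Cd3g, at least 1 UMI of Cd8a or Cd8b1, and none of Cd4, Foxp3, Adgre1 or Cd79a. Of 126095 cells kept over 12 libraries, 1352 met this rule (1.07%), which was 12.7% of the 10673 cells with a Cd3 UMI. The genes of the rule chose the cells, so their levels are a description and were not tested.

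The study asked how the SVF of obese mice responds to rosiglitazone (Rosi), an agonist of the nuclear receptor PPARγ. Single cells of epididymal (eWAT) and inguinal (iWAT) white adipose tissue were sequenced by droplet 3′ RNA-seq from 12-week-old male mice. The 3 conditions were lean C57BL/6J mice given vehicle (WT-Veh), leptin-deficient Lep-ob/Lep-ob mice given vehicle (ob/ob-Veh) and the same mutants given Rosi at 30 mg/kg (ob/ob-Rosi), each by oral gavage morning and evening for 3 days. Methylcellulose was the vehicle, so every group was gavaged, and no lean mice given Rosi were sequenced. Each condition and depot had 2 libraries from separate mice, and the ob/ob genotype differs from the lean strain controls in body mass from early life as well as in leptin. Whether the eWAT and iWAT libraries of 1 number came from the same mouse is not given in the sources used here.

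CD8 T cells are cytotoxic lymphocytes that recognise peptides on MHC class I through the T cell receptor and its CD3 chains, with CD8 as co-receptor. Naive cells recirculate through lymphoid tissue and carry the chemokine receptor encoded by Ccr7, whereas effector and memory cells enter tissue, store granzymes and perforin in granules, and secrete the chemokine Ccl5. In adipose tissue CD8 T cells are known to become more numerous in diet-induced obesity and to take part in macrophage recruitment.

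In the mm10 build, Cd8b1 (chr6:71322788-71337494, plus strand) and Cd8a (chr6:71373427-71379173, plus strand) are neighbours that encode the chains of the co-receptor. Cd3e (chr9:44998740-45009627, minus strand) encodes a signalling chain of the receptor complex, and Ccl5 lies at chr11:83525778-83530518 on the minus strand. Cd8b1 was detected in 950 of the 1352 cells (70.3%), Cd8a in 810 (59.9%) and both in 408 (30.2%). A T cell transcript outside the rule, from Trac, Trbc1, Trbc2, Cd2 or Lck, was found in 1152 cells (85.2%), and the constant region of the receptor alpha chain, Trac, in 585 (43.3%). The cells were shallow, with a median of 1614 UMIs, so absence of a UMI does not show absence of the transcript.

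The rule admits cells on very little evidence. Of the members, 373 carried exactly 1 Cd3 UMI and 1 Cd8 UMI, and 513 carried 2 or more of each. Just outside, 851 cells had a Cd8 UMI but no Cd3 UMI, and cells meeting both positive conditions were turned away by Adgre1 in 199 cases, by Cd79a in 99, by Cd4 in 51 and by Foxp3 in 12. RNA of other cells was common in the members: 1153 (85.3%) held a UMI of C1qa, C1qb, Col1a1, Dcn, Cdh5, Ms4a1 or Igkc, which mark macrophages, stroma, endothelium and B cells. Natural killer T and gamma-delta T cells can carry CD3 too. Klrb1c was seen in 21 members (1.55%) and Trdc in 10 (0.740%), which at this depth does not show how many such cells were taken. No member barcode was a member in another library, although 38 of them also occurred among the kept cells of another library.

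Several libraries stood apart before any comparison. WT-Veh iWAT replicate 1 held 694 of the members (51.3%), yet 324 of these were at 1 UMI each, only 75.1% had another T cell transcript against 99.6% in WT-Veh iWAT replicate 2, and 185 of the 206 members marked as likely doublets came from it. In that library 8.07% of macrophage-gated cells carried a Cd8 UMI, compared with 0 to 1.03% in the other 11, and B-gated cells made up 7.47% of kept cells, compared with at most 1.27%. The libraries labelled ob/ob-Veh in iWAT held only 5 and 17 members, at a median of 1276 and 1080 UMIs and with medians of 13.1% and 12.9% of UMIs from mitochondrial genes. None of these 22 cells had 2 or more UMIs of both Cd3 and Cd8, and another T cell transcript was found in 9 of the 17 (52.9%), the lowest share of all 12 libraries. In ob/ob-Rosi eWAT replicate 1 the 21 members had the lowest median depth of all 12 libraries (946 UMIs). Of these, 7 were at 1 UMI each, and their median mitochondrial share was 11.7%, against 3.22% to 5.91% in the other eWAT libraries. Over all kept cells, leptin UMIs per 100 UMIs of the adipocyte gene Adipoq were 28.0 and 42.5 in eWAT of WT-Veh, 3.96 and 16.2 in ob/ob-Veh, and 240 and 390 in ob/ob-Rosi, with 20.1 and 31.6, 36.4 and 15.1, and 164 and 141 in iWAT. The mutant allele is known for raised leptin mRNA, and the ob/ob-Veh libraries were not above WT-Veh except replicate 1 in iWAT (4 Lep UMIs), so groups are named below by their labels. The 4 libraries labelled ob/ob-Veh also stood apart over all kept cells in other transcripts: ribosomal protein genes took 7.34% to 11.3% of their UMIs against 12.3% to 16.9% in the other 8, and Trem2, a lipid receptor gene of macrophages, was at 8.73 to 49.5 CPM against 199 to 1177 CPM (counts per 1000000 UMIs).

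CD8 T cells were scarce in every library, and their share did not pass the test for any comparison. In eWAT they were 0.136% and 1.85% of kept cells in WT-Veh, 0.382% and 0.297% in ob/ob-Veh, and 0.223% and 0.636% in ob/ob-Rosi. The 2 lean eWAT libraries were the lowest and the highest of the depot, so the groups overlapped. In iWAT they were 4.07% and 2.47% in WT-Veh, 0.0694% and 0.236% in ob/ob-Veh, and 0.620% and 0.286% in ob/ob-Rosi, and here the 3 groups did not overlap. That held at full depth only. With every kept cell thinned to 700 UMIs before the rule, 356 of 17063 and 132 of 9837 cells met it in iWAT of WT-Veh. In ob/ob-Veh 1 of 7205 and 11 of 7203 met it, and in ob/ob-Rosi 25 of 9674 and 21 of 17500. The ob/ob-Veh and ob/ob-Rosi shares then overlapped. In the fit of cell numbers by edgeR, the difference of ob/ob-Veh from WT-Veh on the log2 scale was −1.54 ± 1.15 (SE) in eWAT (adjusted p = 0.504) and −4.41 ± 1.30 in iWAT (adjusted p = 0.0712), and that of ob/ob-Rosi from ob/ob-Veh was 0.34 ± 1.14 in eWAT (adjusted p = 0.972) and 1.56 ± 1.18 in iWAT (adjusted p = 0.504). None passed the threshold of 0.05. Without WT-Veh eWAT replicate 2 the eWAT difference turned to 1.31, and without ob/ob-Rosi eWAT replicate 2 the Rosi difference in eWAT turned to −0.61, while the iWAT difference of ob/ob-Veh passed (edgeR adjusted p = 0.0304) without either WT-Veh eWAT library. Without WT-Veh iWAT replicate 1 the iWAT differences were −4.01 (edgeR adjusted p = 0.177) for ob/ob-Veh and 1.55 (adjusted p = 0.576) for ob/ob-Rosi. Without the ob/ob-Veh iWAT library of 5 cells they were −3.79 and 0.93, and without that of 17 cells −5.54 and 2.68, none of which passed.

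**Figure D1:**
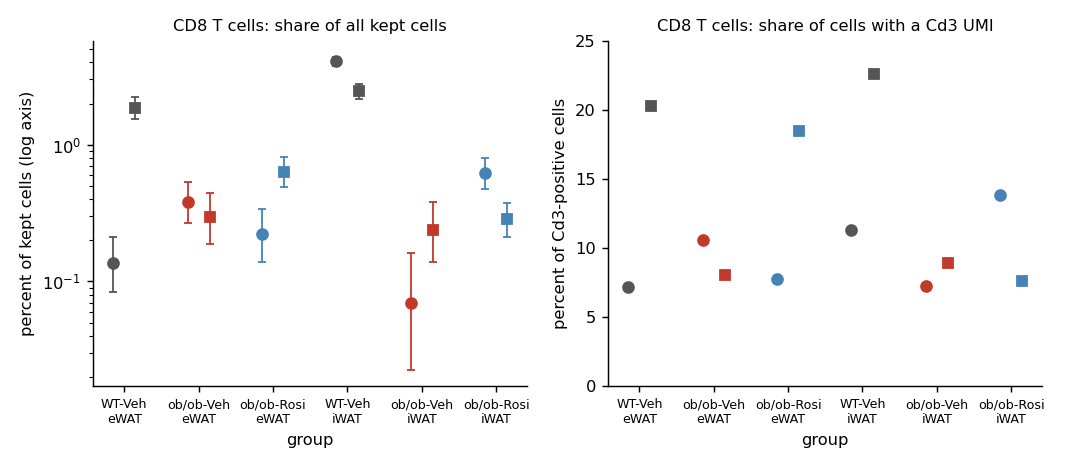
CD8 T cells as a percentage of kept cells (log axis, with exact 95% binomial intervals that cover counting error only) and of cells with a Cd3 UMI, with 1 point per library (circles replicate 1, squares replicate 2). In iWAT the WT-Veh libraries sit at 4.07% and 2.47% and the ob/ob-Veh libraries at 0.0694% and 0.236%, while in eWAT the WT-Veh libraries lie at both ends of the range.

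Other lymphocyte classes had differences of the same sign in iWAT, none of which passed the test. In the same fit the ob/ob-Veh against WT-Veh difference was −4.26 for conventional CD4 T cells, −3.34 for other CD3 T cells, −3.21 for B cells and −3.35 for natural killer (NK) cells. Regulatory T cells numbered 53 and 40 in iWAT of WT-Veh, 0 and 0 in ob/ob-Veh, and 7 and 37 in ob/ob-Rosi, and with no cell in 1 group their fitted difference is not given (edgeR adjusted p = 0.0712 for ob/ob-Veh against WT-Veh). Among cells with a Cd3 UMI, CD8 T cells were 11.3% and 22.6% in iWAT of WT-Veh, 7.25% and 8.90% in ob/ob-Veh, and 13.9% and 7.56% in ob/ob-Rosi. The mean log2 difference of that share between ob/ob-Veh and WT-Veh in iWAT was −0.99 (exact permutation test, two-sided, p = 0.333, the smallest that 2 libraries against 2 allow). Over both depots, the mean log2 difference in the share of kept cells was −2.60 for ob/ob-Veh against WT-Veh (exact permutation p = 0.167) and 0.94 for ob/ob-Rosi against ob/ob-Veh (p = 0.278), where 0.0556 was the smallest p possible. In SVF a lower share can come from fewer CD8 T cells or from more of other cells, and these cannot be told apart. Fewer cells met the rule when cells were thinned, so the share depends on depth as well.

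Most CD8 T cells carried Ccl5 in every library except WT-Veh iWAT replicate 1 and both of ob/ob-Veh iWAT. Ccl5 was detected in 12 of 20 and 108 of 120 of them in eWAT of WT-Veh, 77.1% and 60.9% in ob/ob-Veh, and 61.9% and 87.5% in ob/ob-Rosi. In iWAT the shares were 19.0% and 93.4% in WT-Veh, 40.0% and 11.8% in ob/ob-Veh (2 of 5 and 2 of 17 cells), and 71.7% and 70.0% in ob/ob-Rosi. As background, Ccl5 was detected in 1.01% to 20.5% of macrophage-gated cells, which had median depths of 1758 to 6773 UMIs against 946 to 3463 in CD8 T cells. In WT-Veh iWAT replicate 1 the macrophage-gated share was close to 15%, against 19.0% of its CD8 T cells, while the summed level was 58.7 CPM in macrophage-gated cells, 114 over all kept cells and 239 in CD8 T cells.

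Summed over the CD8 T cells of a library, Ccl5 stood at 2697 and 10357 CPM in eWAT of WT-Veh, 3765 and 2471 in ob/ob-Veh, and 4860 and 8431 in ob/ob-Rosi. In iWAT it stood at 239 and 16070 CPM in WT-Veh, 351 and 141 in ob/ob-Veh, and 6314 and 5889 in ob/ob-Rosi. The 2 lean iWAT libraries were thus the second lowest and the highest of all 12. Nkg7, a granule membrane protein of cytotoxic cells, was at 434 and 1571, 613 and 499, and 992 and 1445 CPM in the same order of groups in eWAT, and at 156 and 1895, 527 and 47, and 839 and 541 CPM in iWAT. Gzmk, a granzyme typical of effector memory cells, ran from 0 in 3 libraries to 387 CPM in WT-Veh iWAT replicate 2.

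To compare libraries of unequal depth, every cell was thinned to 700 UMIs. A UMI of Ccl5 or Nkg7 was then kept in 55.0% and 90.8% of CD8 T cells in eWAT of WT-Veh, 74.3% and 60.9% in ob/ob-Veh, and 71.4% and 84.4% in ob/ob-Rosi. A UMI of Ccr7, a transcript of naive and central memory cells, was kept in 20% and 5.0%, 8.57% and 8.70%, and 4.76% and 7.81%. In iWAT the Ccl5 or Nkg7 share was 16.6% and 93.4% in WT-Veh, 80.0% and 17.6% in ob/ob-Veh, and 68.3% and 72.0% in ob/ob-Rosi, and that of Ccr7 was 23.8% and 5.35%, 0 and 17.6%, and 10% and 12%. The libraries with the 2 lowest effector shares, WT-Veh iWAT replicate 1 and ob/ob-Veh iWAT replicate 2, had the highest and the third highest Ccr7 share. Unthinned, the effector share ranged from 17.6% to 96.7%.

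**Figure D2:**
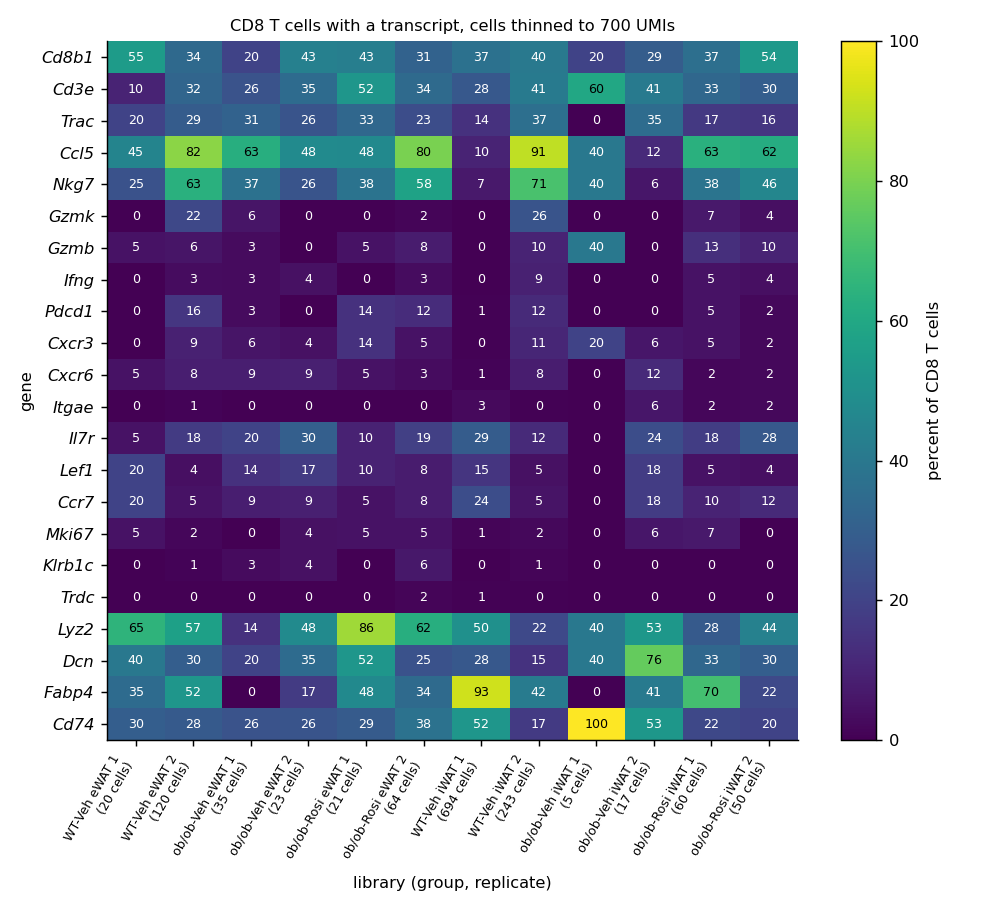
Percentage of CD8 T cells with a UMI of each transcript after thinning to 700 UMIs per cell, by transcript (rows) and library (columns). WT-Veh iWAT replicate 2 has Ccl5 in 90.5% of cells, whereas WT-Veh iWAT replicate 1 has it in 10.1% and has Ccr7 in 23.8%.

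Checkpoint, residence and cycling transcripts were sparse. Pdcd1, the gene of the inhibitory receptor PD-1, was found unthinned in 28.3% of CD8 T cells in WT-Veh eWAT replicate 2, 28.1% in ob/ob-Rosi eWAT replicate 2 and 27.2% in WT-Veh iWAT replicate 2, but in 0 to 14.3% elsewhere. Cxcr6, a receptor of tissue lymphocytes, ranged from 3.17% to 20% of cells. The residence integrin Itgae was found in 50 members (3.70%), 39 of them in WT-Veh iWAT replicate 1. Mki67, a cycling marker, was found in 83 members (6.14%), and macrophage-gated cells carried it in 1.47% to 17.6%, so cycling was not read from it. For 13 transcripts and 2 contrasts (26 tests), an exact permutation test of the thinned library shares within depots gave no p below 0.0556, the smallest it allows, and the lowest adjusted p was 0.361.

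Members with and without Ccl5 differed in other transcripts. In the 11 libraries other than WT-Veh iWAT replicate 1, thinning left 495 cells with Ccl5 and 163 without. Nkg7 was kept in 65.1% of the first and 27.6% of the second, Gzmk in 18.6% and 3.68%, Pdcd1 in 12.3% and 1.84%, and Gzmb in 10.5% and 1.23%. The opposite held for Satb1 (6.06% and 30.1%), Ccr7 (2.63% and 22.1%), Dapl1 (1.41% and 12.9%) and the interleukin-7 receptor gene Il7r (11.7% and 30.7%), all transcripts of naive or long-lived T cells. This is a description, since cells of 1 library are not replicates, and Satb1, Dapl1 and Il7r were picked after their values were seen. The cells were pooled over libraries in which the thinned Ccl5 or Nkg7 share ran from 17.6% to 93.4%. The split therefore mixes differences between libraries, depots and conditions with differences between cells. T cell transcripts and RNA of other cells moved with the split too: Trbc2 was kept in 55.2% of cells with Ccl5 and 33.1% of those without, Cd3g in 42.0% and 25.8% and Trac in 31.3% and 22.1%, whereas the stromal gene Dcn was kept in 22.6% and 36.8% and the MHC class II chain gene Cd74 in 22.4% and 31.9%. Their part in the difference was not tested. In WT-Veh iWAT replicate 1 the 70 cells with Ccl5 and the 624 without had Nkg7 in 4.29% and 7.21% and Ccr7 in 21.4% and 24.0%.

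The 2 lean iWAT libraries also differed among cells further inside the rule. Among cells with 2 or more UMIs of Cd3 and of Cd8, Ccl5 was found unthinned in 20.3% of 118 cells in WT-Veh iWAT replicate 1 and in 94.8% of 173 in replicate 2. In the 6 other libraries with at least 15 such cells it was found in 59.1% to 95%. Ccr7 was found in 61.0% of the 118 cells, against 9.25% in replicate 2 and 18.4% to 40.0% in the others. Fabp4, a fatty acid binding protein of endothelial cells and adipocytes, was found in 118 of the 118 cells, and its part in the result was not tested.

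CD8 T cells were next set beside the conventional CD4 T cells of the same library (597 cells, taken with a Cd4 UMI in place of Cd8), which asks what sets the classes apart once the genes of the rules are left out. The sums of 10 libraries with at least 10 cells of each class entered, which left out both ob/ob-Veh iWAT libraries. Of 2418 genes tested, edgeR called 18 higher (0.744% of genes) and 27 lower (1.12%) in CD8 T cells, 1.86% in all. Of the 12 tested genes of the cytotoxic list, 5 were higher and none lower, with a list median of 1.29 on the log2 scale against 0.01 over all genes. These were the granzyme gene Gzma (3.37 ± 0.74, adjusted p = 0.0101), the perforin gene Prf1 (2.59 ± 0.40, adjusted p = 3.67e-04), Ccl5 (2.07 ± 0.34, adjusted p = 4.72e-04), the cathepsin gene Ctsw (2.02 ± 0.26, adjusted p = 1.63e-05) and Nkg7 (1.65 ± 0.30, adjusted p = 0.00164). The marker list of NK cells moved with them, with 2 of 8 tested genes higher (Gzma and Klra7), none lower and a median of 2.43. Markers of that list took 0.0580% to 0.200% of CD8 T cell UMIs in the 10 libraries, and Ncr1 had no UMI in 6 of them. Gzma ranged from 0 to 1334 CPM in CD8 T cells (median 50.8), with 310 of its 493 UMIs in ob/ob-Rosi iWAT replicate 1, and from 0 to 45.5 in CD4 T cells (median 3.07). Its difference was 2.18 without that library and did not pass without WT-Veh iWAT replicate 2 (3.09, adjusted p = 0.0655). The part of NK cell RNA in these differences was not tested.

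The size of these differences was steady for some genes and not for others. Ctsw ranged from 80.7 to 278 CPM over the 10 CD8 T sums (median 129) and from 0 to 139 over the CD4 T sums (median 32.3), and it was higher in CD8 T cells in 10 of 10 libraries. Ly6c2, a surface antigen of memory CD8 T cells, ranged from 231 to 1095 CPM (median 649) in CD8 T cells and from 37.8 to 372 (median 143) in CD4 T cells, and was also higher in 10 of 10 (2.09 ± 0.20, adjusted p = 6.4e-08). Ccl5 ranged from 239 to 16070 CPM (median 5374) in CD8 T cells and from 80.9 to 6734 (median 1455) in CD4 T cells, higher in 9 of 10. Runx3, the transcription factor that sets the CD8 lineage, was 1.02 ± 0.18 higher (adjusted p = 0.00164).

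NK receptors on T cells were higher in 3 of 9 tested genes: Klrd1 (1.79 ± 0.35), Klrk1 (1.4 ± 0.33) and Klra7 (adjusted p = 0.0498), which had 36 UMIs in CD8 T and 1 in CD4 T cells. Klra7 belongs to a family of near-identical genes whose reads can be split among copies, so its value is uncertain. Further genes were higher in 10 of 10 libraries. Selplg was 0.63 ± 0.15 higher, and Ms4a4b, Gramd3 and the kinase gene Txk were 0.81 ± 0.20, 0.84 ± 0.19 and 1.03 ± 0.26 higher.

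Of the 10 genes of the CD4 T helper marker list 3 were tested and 2 were lower in CD8 T cells (Gata3 and Ctla4). Gata3, the regulator of type 2 helper cells, ranged from 0 to 73.0 CPM (median 30.9) against 47.2 to 341 (median 87.0) in CD4 T cells and was lower in 10 of 10 libraries (−1.63 ± 0.26, adjusted p = 4.34e-04). Of the 15 genes of the checkpoint list 5 were tested and 4 were lower: Ctla4 (−1.23 ± 0.27), the costimulatory receptor gene Icos (−0.96 ± 0.19), Tnfrsf18 (−0.88 ± 0.23) and the nuclear receptor gene Nr4a3 (−0.83 ± 0.20). Ctla4 is on both lists. Regulatory T cells were kept out of the CD4 T class only by the lack of a Foxp3 UMI. In shallow cells that does not show how many were taken. The inhibitor of receptor signalling Cd5 (−1.21 ± 0.24), the hypoxia regulator Hif1a (−1.11 ± 0.17), Ramp3 (−1.57 ± 0.29), Tspan32 (−1.24 ± 0.25), Dusp10 (−1.16 ± 0.23), Tspan13 (−1.01 ± 0.25), Nfkbid (−0.97 ± 0.19), Odc1 (−0.94 ± 0.21), Dgat1 (−0.92 ± 0.21) and the integrin gene Itgb1 (−0.61 ± 0.15) were also lower. None of 12 naive genes was called, with Ccr7 at 1.03 ± 0.32 (adjusted p = 0.0995), nor any of 75 ribosomal, 10 macrophage, 9 stromal or 4 endothelial marker genes. Called genes numbered 49 without WT-Veh iWAT replicate 1, but 28, 27 and 22 without ob/ob-Veh eWAT replicate 1, WT-Veh eWAT replicate 2 and WT-Veh iWAT replicate 2.

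**Figure D3:**
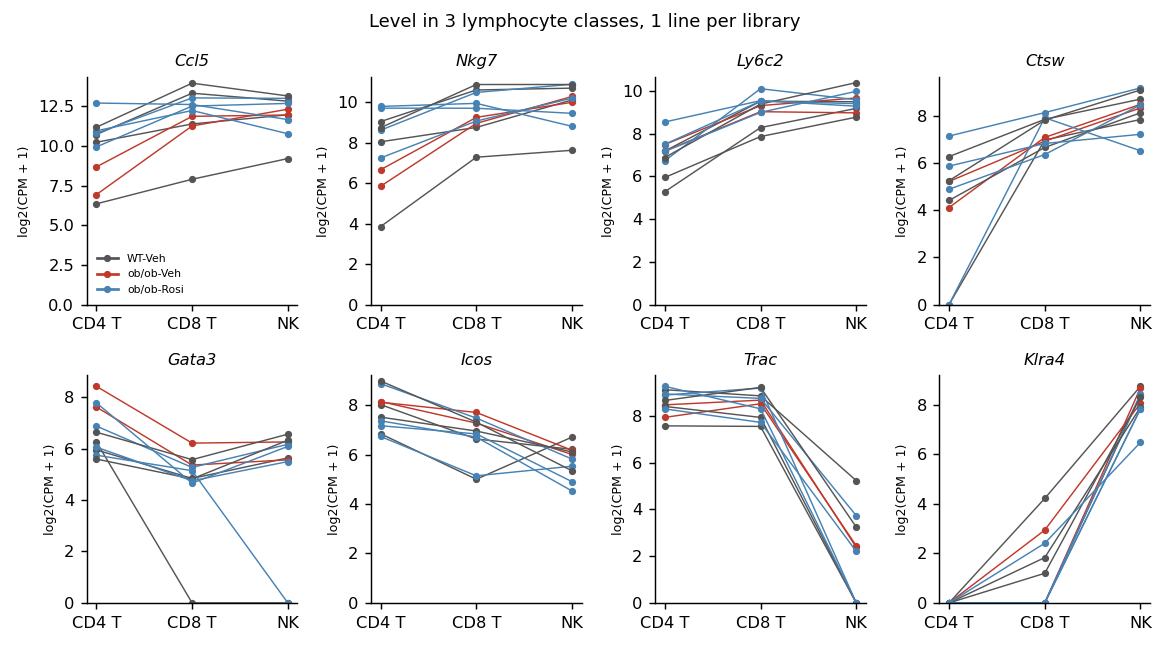
Levels of 8 genes on a log2(CPM + 1) scale in the conventional CD4 T, CD8 T and NK sums of 10 libraries, with 1 line per library. Ly6c2 and Ctsw rise from CD4 T to CD8 T cells in 10 of 10 libraries, and Gata3 falls in 10 of 10.

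NK cells share the cytotoxic programme of CD8 T cells but lack a T cell receptor, and 858 of them were taken by a UMI of Ncr1 and none of CD3, Adgre1 or Cd79a. In the same 10 libraries edgeR called 254 genes higher (10.5%) and 224 lower (9.26%) in CD8 T cells, 19.8% of 2418 in all. Without WT-Veh iWAT replicate 1 it called 486 genes. The split moved with scaling, to 186 higher and 406 lower with library size alone and to 196 and 371 with ribosomal and mitochondrial genes left out of the scaling. Of 17 receptor and signalling genes, 12 were higher, including Themis (401 UMIs against 2 in NK cells), Cd6 (235 UMIs against 2), Trac (5.56 ± 0.26), Lat (2.85 ± 0.27) and Trbc2 (2.48 ± 0.19), while Ptprc, the gene of CD45, was lower (−0.37 ± 0.12). Trac ranged from 186 to 593 CPM in CD8 T cells and from 0 to 36.5 in NK cells, with no overlap. The rules took CD8 T cells with a Cd3 UMI and NK cells without any. Higher receptor genes therefore follow in part from the rules, although the Cd3 genes were left out.

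Naive and survival genes were higher in CD8 T than in NK cells in 5 of 12 tested, with Ccr7 at 5.89 ± 0.52, Il7r at 2.48 ± 0.25, Tcf7 at 1.65 ± 0.29 and Lef1 at 1.54 ± 0.26. Granule and secretion genes were lower in 6 of 12, with Gzma at −4.35 ± 0.43, the chemokine gene Xcl1 at −3.21 ± 0.37, Prf1 at −2.47 ± 0.22 and Gzmb at −2.06 ± 0.35. Ccl5 did not pass the test (0.11 ± 0.31, adjusted p = 0.909), and its level was above that of NK cells in 5 libraries and below it in 5. The cytokine receptor gene Il2rb was −1.23 ± 0.14 and Il18rap −1.57 ± 0.20, and the interferon regulator Irf8 was −2.77 ± 0.33.

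All 9 tested genes of the NK receptor list and all 8 of the NK marker list were lower, with Klrb1c at −4.50 ± 0.37 and Klre1 at −3.82 ± 0.29, and among the Klra genes, whose reads can be shared, Klra8 was at −6.17 ± 0.45 and Klra4 at −5.82 ± 0.33. The lists share Klrb1c, Klra7, Klre1, Fcer1g and Tyrobp, so they are not separate results. NK cells were chosen by the NK gene Ncr1, so this follows in part from the choice of classes. Ribosomal protein genes were higher in 72 of 75, with a list median of 0.57 against −0.01 over all genes. Rps19 was at 2396 to 5946 CPM in CD8 T cells and 1128 to 2970 in NK cells, 0.98 ± 0.12 higher, and it ranged from 0.80 to 1.06 over the alternatives tried. Marker genes of other cells differed as well: 9 of 9 stromal genes were lower in CD8 T cells (median −1.01) and the 4 tested MHC class II genes of dendritic cells were higher, such as Cd74 at 1.24 ± 0.39. Their part in the result was not tested.

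In eWAT the question was whether ob/ob and Rosi changed the CD8 T cells themselves. Of 5300 genes tested over 11 libraries, edgeR called 2 higher (0.0377%) and 5 lower (0.0943%) in the libraries labelled ob/ob-Veh than in WT-Veh, 0.132% in all, and 17 higher (0.321%) and 1 lower (0.0189%) in ob/ob-Rosi than in ob/ob-Veh, 0.34% in all. No called gene belonged to a list of T cell function. The macrophage marker list held 2 called genes of 10 in each comparison (C1qb and Apoe), the PPAR target list held Fabp5 and, with Rosi, Fabp4, and the endothelial marker list held Fabp4 and Gpihbp1 with Rosi. Both comparisons share the ob/ob-Veh libraries, so their values are given side by side.

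Trem2 was at 186 and 193 CPM in CD8 T cell sums of WT-Veh, 0 and 12.2 in ob/ob-Veh, and 240 and 241 in ob/ob-Rosi. The ob/ob-Veh libraries lay below all others, and edgeR called Trem2 in both comparisons (adjusted p = 0.0153 for ob/ob-Veh against WT-Veh and 0.0082 for ob/ob-Rosi against ob/ob-Veh). They held 1 UMI of it, against 83 in WT-Veh, a ratio of summed levels of 44.7 (95% interval 7.81 to 1788, counting error only), and 52 in ob/ob-Rosi, a ratio of 55.9 (9.60 to 2250). Mgp, which encodes matrix Gla protein, was at 837 and 851 CPM, 46.6 and 12.2, and 2738 and 942 (−4.73 ± 0.68, adjusted p = 8.44e-04, and 5.53 ± 0.69, adjusted p = 5.65e-05). The 2738 CPM came from ob/ob-Rosi eWAT replicate 1, whose 21 members had medians of 946 UMIs and 11.7% mitochondrial UMIs. The stromal gene Dcn was at 5373 CPM in its members and 3538 over all its kept cells, and the part of RNA quality was not tested. Fabp5, a fatty acid binding protein and PPAR target, was at 279 and 268 CPM, 13.3 and 12.2, and 205 and 407 (adjusted p = 0.00476 and 0.00302). With 3 UMIs in ob/ob-Veh, its level was lower by a ratio of 20.8 (6.96 to 102) than in WT-Veh and higher in ob/ob-Rosi by a ratio of 29.4 (9.71 to 145).

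The apolipoprotein gene Apoe, at 2017 to 6077 CPM in WT-Veh, 187 to 292 in ob/ob-Veh and 1220 to 2909 in ob/ob-Rosi, differed by −4.14 ± 0.70 and 2.93 ± 0.67. The complement gene C1qb, at 306 to 527, 36.5 to 46.6 and 444 to 650 CPM, differed by −3.26 ± 0.68 and 3.53 ± 0.67. Naaa rose by 3.92 ± 0.83 in ob/ob-Veh, and Ptgs2, the prostaglandin synthase gene, had no count in WT-Veh and was at least 17.9-fold higher in ob/ob-Veh against a floor of 3 counts over the group. With Rosi, Fabp4 (4.07 ± 0.79), Timp3 (3.65 ± 0.75) and Col4a1 (3.54 ± 0.79) rose, as did Gpnmb (55 UMIs against 3, a ratio of 19.7, interval 6.40 to 98.5), and the lysozyme gene Lyz1 fell (3 UMIs against 93, a ratio of 28.8, interval 9.57 to 142). Mgll, Fmo2, Ctsk and Gpihbp1 had no count in ob/ob-Veh and were at least 11.1-, 12.2-, 10.8- and 24.7-fold higher in ob/ob-Rosi, although Gpihbp1 had no count in ob/ob-Rosi replicate 1.

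Over all kept cells Trem2, Mgp, Fabp5, Apoe, C1qb, Gpnmb, Ctsk, Ptgs2 and Naaa ran the same way as in CD8 T cells. Fmo2, Mgll, Fabp4 and Gpihbp1 did not, and Timp3, Col4a1 and Lyz1 were not looked at there. Trem2 over all kept cells was at 1110 and 915 CPM in WT-Veh, 35.0 and 49.5 in ob/ob-Veh, and 930 and 1177 in ob/ob-Rosi, and Mgp was at 1906 and 2333, 294 and 325, and 2659 and 2556. Fabp5 was at 1115 and 1035, 79.6 and 113, and 973 and 960 CPM. Apoe was at 19798 and 18088, 2491 and 3463, and 14858 and 10469 CPM, and C1qb at 2862 and 2749, 508 and 960, and 2474 and 3562. Fmo2 ran the other way, at 196 and 226 CPM over all kept cells in ob/ob-Veh and 104 and 102 in ob/ob-Rosi. Mgll (98.2 and 238 against 82.3 and 192), Fabp4 (1800 and 5617 against 3140 and 5678) and Gpihbp1 (67.8 and 305 against 138 and 469) overlapped. The 10 macrophage markers together took 1.01% and 0.423% of UMIs of CD8 T cells in WT-Veh, 0.282% and 0.201% in ob/ob-Veh, and 0.705% and 0.414% in ob/ob-Rosi, against 3.76% and 3.56%, 0.738% and 1.11%, and 3.36% and 3.22% over all kept cells. All 10 macrophage markers were detected in each of these 6 libraries. The 10 endothelial markers took 0.0558% and 0.126%, 0.0193% and 0.0353%, and 0.0856% and 0.592% of CD8 T cell UMIs, and the 10 stromal markers 0.267% and 0.303%, 0.329% and 0.420%, and 1.61% and 0.304%. Over all kept cells the stromal markers were highest in ob/ob-Veh, at 3.07% and 2.92% of UMIs against 1.07% and 1.69% in WT-Veh and 1.58% and 1.51% in ob/ob-Rosi. Their part in the result was not tested.

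**Figure D4:**
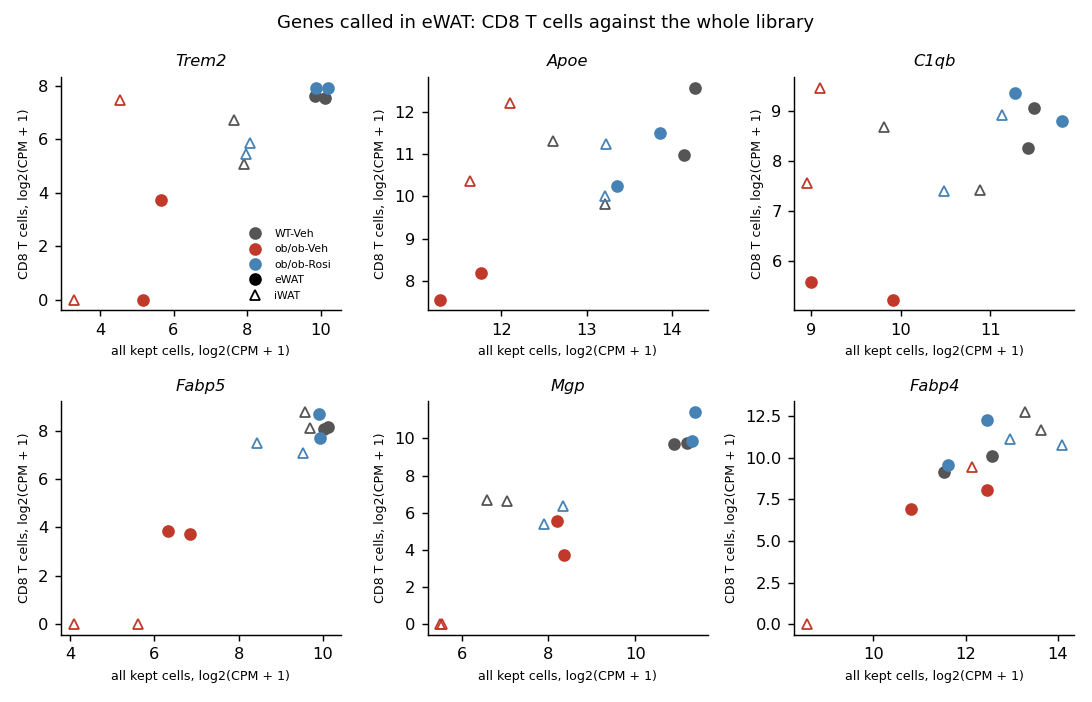
Levels of 6 genes on a log2(CPM + 1) scale in the CD8 T cell sum of a library (vertical) and over all kept cells of that library (horizontal), with 1 point per library (filled circles eWAT, open triangles iWAT). In eWAT, Trem2 in CD8 T cell sums is at 0 and 12.2 CPM in the ob/ob-Veh libraries, where it is at 35.0 and 49.5 CPM over all kept cells.

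T cell genes did not pass the test in eWAT. None of 15 cytotoxic genes was called, with list medians of −0.73 for ob/ob-Veh against WT-Veh and 0.38 for ob/ob-Rosi against ob/ob-Veh, beside 0.02 and −0.02 over all genes. Ccl5 differed by −1.18 ± 0.93 and 1.07 ± 0.93, and Nkg7 by −1.02 ± 0.74 and 1.11 ± 0.74. None of 14 naive genes was called (medians 0.62 and −0.93). Tcf7, a factor of naive and memory T cells, came nearest, at 155 and 95.3 CPM in WT-Veh, 386 and 292 in ob/ob-Veh, and 0 and 69.6 in ob/ob-Rosi, a difference of −2.60 ± 0.71 with Rosi (edgeR adjusted p = 0.141). None of the 17 receptor, 19 regulator, 11 residence, 8 checkpoint, 9 NK receptor, 9 interferon, 12 proliferation, 15 chemokine receptor or 13 cytokine receptor genes tested was called for either comparison, nor any of 79 ribosomal or 69 oxidative phosphorylation genes.

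The eWAT counts of called genes moved with the depth and the libraries. Only 0 to 3 members of each eWAT library were marked as doublets, against 185 in WT-Veh iWAT replicate 1, which shares the fit. With cells thinned to 700 UMIs edgeR called 1 and 2, and with cells of high doublet scores left out 1 and 8. Without ob/ob-Veh eWAT replicate 1 it called 2 and 1, without ob/ob-Veh eWAT replicate 2 it called 5 and 5, without ob/ob-Veh iWAT replicate 2 it called 4 and 11, and without WT-Veh eWAT replicate 2 it called 2 and 12. Without WT-Veh iWAT replicate 1 it called 19 and 44, without WT-Veh iWAT replicate 2 it called 19 and 49, and without ob/ob-Rosi iWAT replicate 2 it called 12 and 24.

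In iWAT the ob/ob-Veh group rested on 1 library of 17 cells and 21243 UMIs, since the library of 5 cells was left out and the lone sample is assumed to vary like the other groups. These comparisons therefore cannot be given without the 17-cell library, in which another T cell transcript was found in 9 cells. Members marked as doublets numbered 0 in that library and 0 and 3 in the ob/ob-Rosi iWAT libraries. WT-Veh iWAT replicate 1 held 185, and it enters the comparison of ob/ob-Rosi with ob/ob-Veh only through the shared fit. Against WT-Veh, edgeR called 0 of 5300 genes (0% of genes), with 55 genes above and 610 genes below at a raw p under 0.05 and 80 called by DESeq2. That count moved to 133 with a replicate block, to 62 without the low-count filter, to 111 and 91 without ob/ob-Rosi eWAT replicates 1 and 2, to 89 without WT-Veh iWAT replicate 1 and to 4 without WT-Veh iWAT replicate 2. Against ob/ob-Veh, edgeR called 113 higher (2.13%) and 3 lower (0.0566%) in ob/ob-Rosi, 2.19% in all, with a median over all genes of 0.67 on the log2 scale, so differences are read relative to that shift. With library size alone the split was 9 higher and 11 lower. No gene was called once cells with high doublet scores were left out, nor without either ob/ob-Rosi iWAT library or either WT-Veh eWAT library, and 4 and 1 were called without ob/ob-Veh eWAT replicates 1 and 2.

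Ribosomal protein genes were 57 of these 116 called genes. They took 5.97% of UMIs in the 17-cell library and 3.72% in the 5-cell one, whereas they took 14.9% to 33.4% in the other 10 libraries. Over all kept cells they took 7.91% and 7.34% in the same libraries and 11.1% to 16.9% in the others. Of 79 ribosomal genes tested, 57 were higher in ob/ob-Rosi, with a list median of 3.64, and Rps18 was at 3606 to 5230 CPM against 235 (5.36 ± 0.96, adjusted p = 0.0259). Of 69 oxidative phosphorylation genes 13 were higher, with Cox8a at 242 UMIs against 1 (a ratio of 14.4, interval 2.57 to 572). The median mitochondrial share of its cells was 12.9%, compared with 4.24% and 2.68% in ob/ob-Rosi, and the part of RNA quality in the result was not tested.

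Of the T cell genes, Ccl5 was at 6314 and 5889 CPM in iWAT of ob/ob-Rosi and 141 in the 17-cell library, and was called (edgeR adjusted p = 0.0463). It had 3 UMIs in the 17-cell library, for a ratio of 43.7 (interval 14.9 to 212, counting error only), and did not pass with library size alone, with thinned cells, without doublets or when any 1 of 7 libraries was left out. S100a4, a gene of memory T cells, had no count in the 17-cell library and was at least 4.35-fold higher. Lgals1, the adaptor gene Tyrobp and the tubulin gene Tubb5, with 3, 1 and 1 UMIs there, were also higher, by ratios of 7.06 (2.40 to 34.4), 9.60 (1.70 to 382) and 11.3 (2.00 to 447). Tyrobp is also on the NK marker list. Lower among all genes were Ptgs2 (2 UMIs against 13), the sialyltransferase gene St8sia4 (−2.51 ± 0.63) and Abi3bp, which had no count in ob/ob-Rosi and was at least 28.0-fold lower. Over all kept cells Ptgs2 was at 655 CPM in the 17-cell library, against 64.3 and 123 in ob/ob-Rosi. In CD8 T cell sums stromal markers took 0.946% of UMIs against 0.278% and 0.324%, and dendritic markers 1.46% against 0.325% and 0.670%. Macrophage markers took 0.499% against 0.288% and 0.650%, and endothelial markers 0.0847% against 0.197% and 0.295%. NK cell markers took 0.0518% against 0.200% and 0.101%. Their part in the result was not tested. None of 14 naive genes or 17 receptor genes was called. The remaining genes named by fitted change were Selenow, Psmb8, Eif3e, H2afj, Eef1d, Abracl, Atp5d, Atp5j and Cox7a2l. They had no count in the 17-cell library and were at least 2.11- to 3.46-fold higher, which is a bound and gives no rank.

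**Figure D5:**
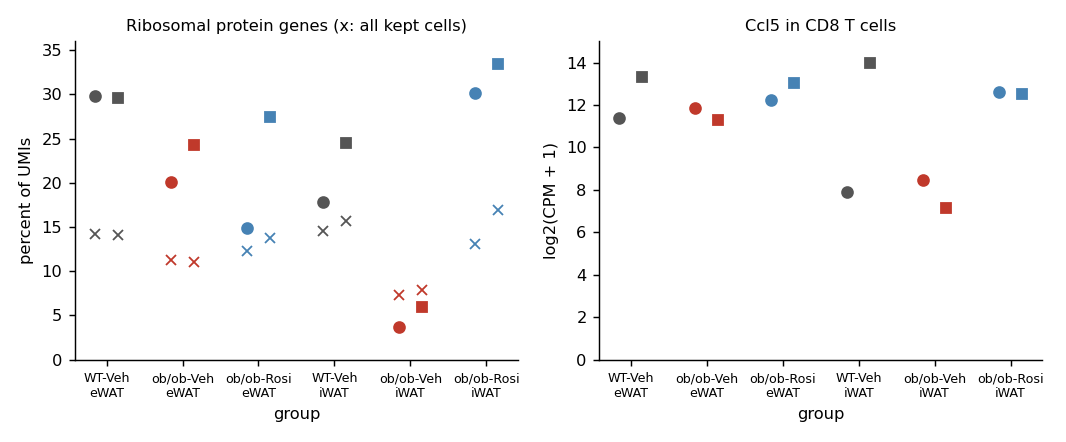
Percentage of UMIs from ribosomal protein genes in CD8 T cell sums (filled marks) and over all kept cells (crosses), and Ccl5 on a log2(CPM + 1) scale in CD8 T cell sums, by library, with circles for replicate 1 and squares for replicate 2. The ob/ob-Veh iWAT libraries are lowest, at 3.72% and 5.97% ribosomal UMIs, and Ccl5 is at 239 CPM in WT-Veh iWAT replicate 1 and 16070 in replicate 2.

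Averaged over both depots, edgeR called 4 genes higher (0.0755%) and 39 lower (0.736%) in ob/ob-Veh than in WT-Veh, 0.811% in all, and 103 higher (1.94%) and 10 lower (0.189%) in ob/ob-Rosi than in ob/ob-Veh, 2.13% in all, with medians over all genes of −0.40 and 0.41. With library size alone the splits were 10 and 5, and 14 and 28, and with ribosomal and mitochondrial genes left out of the scaling they were 4 and 10, and 59 and 13. With cells of high doublet scores left out, 3 genes were called for ob/ob-Veh and 1 for Rosi, and with a replicate block 197 and 279. For the 3 ob/ob-Veh libraries in the fit they included Fabp5 (0 to 13.3 CPM against 268 to 434 in WT-Veh, 3 and 836 UMIs, adjusted p = 0.00119), Mgp (0 to 46.6 against 96.8 to 851 CPM), Trem2 (0 to 12.2 against 32.3 to 193 CPM, 1 and 229 UMIs), Lgals3 (−2.23 ± 0.48) and 12 of 79 ribosomal genes, and the higher genes included Tnip3 (2.75 ± 0.54) and Ear2 (2.77 ± 0.62). For Rosi they included Fabp5 (133 to 407 CPM against 0 to 13.3, adjusted p = 0.00353), Fabp4 (3.35 ± 0.67), Ccl5 (3.81 ± 0.99, adjusted p = 0.0415), the protease inhibitor gene Ctla2a (395 to 924 against 0 to 360 CPM), Ctsz (185 to 376 against 0 to 160 CPM) and 32 ribosomal genes, and the lower genes Ptgs2 (3 UMIs against 42), Runx1 (−2.28 ± 0.60), Nlk (0 to 48.4 against 60.9 to 330 CPM), Gpcpd1 (0 to 56.0 against 80.0 to 282 CPM) and Kctd12 (−1.93 ± 0.50). Markers of other cells were among the calls: C1qb and Apoe of 10 macrophage markers were lower in ob/ob-Veh and higher with Rosi, and of 9 endothelial markers Fabp4 was lower in ob/ob-Veh and Fabp4 and Gpihbp1 were higher with Rosi. Lgals3 ran the same way over all kept cells, at 1117 to 5108 CPM in WT-Veh and 140 to 314 CPM in ob/ob-Veh. Tnip3 and Ear2 were not looked at there. Macrophage markers took 0.235% to 1.01% of CD8 T cell UMIs in WT-Veh, 0.201% to 0.499% in the 3 ob/ob-Veh libraries and 0.288% to 0.705% in ob/ob-Rosi, and endothelial markers took 0.0558% to 0.792%, 0.0193% to 0.0847% and 0.0856% to 0.592%. Their part in the result was not tested. Ccl5 levels of ob/ob-Rosi, 4860 to 8431 CPM, lay above those of the 3 ob/ob-Veh libraries in the fit, 141 to 3765 CPM. In iWAT the ob/ob-Veh side of these averages was the 17-cell library alone, which held 3 Ccl5 UMIs. In eWAT alone Ccl5 was not called with Rosi. Leaving out 1 library moved the counts from 1 (without WT-Veh eWAT replicate 2) to 222 (without WT-Veh iWAT replicate 1) for ob/ob-Veh, and from 3 (without WT-Veh eWAT replicate 1) to 228 (without ob/ob-Rosi eWAT replicate 1) for Rosi.

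The comparison of ob/ob-Rosi with WT-Veh over both depots asked how far treated mutants differed from lean mice. By edgeR and by DESeq2 it had 0 called genes (0% of genes), with 39 genes above and 35 genes below at a raw p under 0.05. Ccl5 differed by −0.18 ± 0.65 and Nkg7 by −0.14 ± 0.51. Between depots, averaged over conditions, edgeR called only Mgp, lower in iWAT (0.0189% of genes), against 13 by DESeq2. Mgp was at 837 and 851 CPM in eWAT and 102 and 96.8 in iWAT of WT-Veh, and over all kept cells it was at 294 to 2659 CPM in eWAT and 44.4 to 321 in iWAT. Ccl5 was −1.67 ± 0.70 and Nkg7 −1.70 ± 0.64 in iWAT against eWAT (both adjusted p = 0.527, beside a median of −0.23 over all genes). For the difference between depots of the ob/ob effect and of the Rosi effect, edgeR called 0 genes (0% each), with raw p under 0.05 for 21 genes above and 412 below, and for 520 above and 46 below, while by DESeq2 the counts were 0 and 87.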

How the data were processed

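SVF of eWAT and iWAT was profiled by droplet 3′ RNA-seq, and the deposited values are raw UMI counts per gene and barcode, which the authors made with Cell Ranger 3.0.2 on mm10 after bcl2fastq 2.19.1.403, per the submitters' processing notes and the paper's methods. The eWAT and iWAT files differ: as deposited, iWAT barcodes end near 22000 UMIs and 25% mitochondrial UMIs, while eWAT barcodes do not. Barcodes with 700 to 22000 UMIs, 200 to 6000 genes and under 25% mitochondrial UMIs were kept (6472 to 17500 cells per library, median 1132 to 4961 UMIs), and CD8 T cells were gated as described. The members and gene lists were chosen with earlier results of these data known. Counts of the members were summed per library, the replicate being the mouse within a depot, and tested with edgeR 4.0.16 (quasi-likelihood, TMM, genes with low counts filtered, gate genes left out) in 1 model over the 11 libraries with at least 10 members. The model had no term for mouse. If 1 mouse gave both depots, its libraries entered the averages over both depots as separate replicates. CD8 T cells were compared with CD4 T and NK cells with library as a block. A gene counted as called where p, adjusted by Benjamini-Hochberg over all genes tested, did not exceed 0.05 and the fitted difference reached 1.1-fold. Differences are on the log2 scale ± SE. Cell numbers were fitted with edgeR too, with p adjusted over 7 classes and 4 comparisons, and library shares were compared by exact permutation tests. CPM are member counts of a gene per 1000000 member UMIs. Binomial intervals are exact (95%) and, like the floor of 3 counts, cover counting error only. For comparisons of groups, named genes with 1 to 3 counts on 1 side are given with the ratio of summed levels and its exact conditional interval, or by their counts or ranges. Doublets were scored against simulated doublets, marked at 0.8% per 1000 cells, kept, and left out in an alternative. Of the 206 members marked, 185 were in WT-Veh iWAT replicate 1, so that alternative mainly changed this library. Named genes were up to 10 per direction with the largest change among called genes at 50 CPM or more without overlap between groups (within a library for the class comparisons), up to 4 called members of each list or otherwise its highest, the gate genes and those of the share tests; others are said to be picked. Gene positions are from GENCODE vM21, which matched 30934 of 31053 gene IDs. The group fit (ob/ob-Rosi against ob/ob-Veh in eWAT) and the class fit (CD8 T against CD4 T cells) were tested on simulated counts. The other steps were not. Alternatives were DESeq2 1.42.0, other scalings, no low-count filter, stricter gates and cell minimums, thinning to 700 UMIs, replicate blocks and leaving out each library. R 4.3.3, Python 3.11.15, numpy 2.4.6, pandas 2.3.3 and scipy 1.17.1 were used.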

Additional observations from a re-analysis of the deposited data

How the results depend on the processing

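Counts below are genes called by edgeR (adjusted p at most 0.05), for ob/ob-Veh against WT-Veh and ob/ob-Rosi against ob/ob-Veh ("ob/ob" and "Rosi"), and causes were not tested. DESeq2 called 80 for ob/ob in iWAT, 100 for ob/ob over both depots, 13 between depots and 87 for the depot difference of Rosi. Library size alone gave 1 for ob/ob and 20 for Rosi in iWAT, and 15 and 42 over both depots, and scaling without ribosomal and mitochondrial genes gave 14 and 72 over both. Without the low-count filter there were 17 and 34 in eWAT, 62 for ob/ob in iWAT, 114 for ob/ob over both depots, 3 for ob/ob-Rosi against WT-Veh, 7 between depots, 2 and 49 for the depot differences, 129 against CD4 T and 989 against NK cells. At least 30 cells per library, which left 1 library in each eWAT group, gave 0 and 0 in eWAT and 23 against CD4 T cells. Thinning gave 1 and 2 in eWAT, 76 for Rosi in iWAT, 72 for Rosi over both depots, 0 between depots, 8 for the depot difference of Rosi, 10 against CD4 T and 162 against NK cells. Requiring Cd8b1 gave 0 and 5 in eWAT, and requiring another T cell transcript, chosen after seeing the data, gave 4 for ob/ob there. Without doublets there were 1 and 8 in eWAT, 0 for Rosi in iWAT, 3 and 1 over both depots and 0 between depots. eWAT libraries alone gave 12 for ob/ob, and no library block gave 17 against CD4 T and 284 against NK cells.

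Same-numbered libraries deviated together with r from −0.057 to 0.337 over 10 pairs of groups, above 0.1 in 4 of them, which include the eWAT and iWAT pairs of WT-Veh (0.205) and ob/ob-Rosi (0.155). Only those pairs join the depots of 1 condition, while the others join different conditions and so different mice. No source used here says that a number marks 1 mouse, so pairing was not settled. With a replicate block there were 19 and 29 in eWAT, 133 and 247 in iWAT, 197 and 279 over both depots, 1 for ob/ob-Rosi against WT-Veh, 8 between depots and 123 for the depot difference of Rosi, and a replicate block within group gave 3 between depots.

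Leaving out each library gave 2 to 19 and 1 to 49 genes in eWAT, 0 to 111 and 0 to 165 in iWAT, 1 to 222 and 3 to 228 over both depots, 0 to 5 for ob/ob-Rosi against WT-Veh, 0 to 39 between depots, 0 to 6 and 0 to 113 for the depot differences, 22 to 53 against CD4 T and 402 to 504 against NK cells. The log2 difference in CD8 T cell number ran from −2.44 to 1.31 for ob/ob and from −0.607 to 0.902 for Rosi in eWAT, and from −5.54 to −3.79 and 0.899 to 2.68 in iWAT, where ob/ob passed the test (−4.41, edgeR adjusted p = 0.0304) without either WT-Veh eWAT library. Over all named genes and alternatives, 2752 values kept direction and call (or direction alone, where DESeq2 gave no adjusted p), 974 kept direction and lost the call, and 1 became 0 (Gpihbp1 with Rosi in eWAT without ob/ob-Rosi eWAT replicate 2, since no UMI was left in either group, against a fitted 9.95 without replicate 1, which is no bound since ob/ob-Veh had no count). Leaving out members with a transcript of another cell type gave no value, since too few libraries remained, and at least 30 cells, Cd8b1 and another T cell transcript gave none for comparisons that use iWAT of ob/ob-Veh. Depth limits these results: 5 to 694 members per library carried 5694 to 1175611 UMIs.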
